A study of Mus musculus with 6 samples.

Results

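The 8 genes described here make phosphatidylethanolamine and phosphatidylcholine: Selenoi, Pcyt2, Etnk1, Cept1, Chpt1, Pcyt1a, Pisd and Chka. They were taken by name from a table of 24467 genes measured by RNA sequencing in mouse embryonic stem (ES) cells, and all 8 passed the filter on low counts that left 14771 genes for testing. Selenoi was chosen by its expression in the 6 libraries, which was higher in cells lacking HP1 alpha and HP1 beta, so its difference from the control is given as a description with no test. The other 7 were chosen as enzymes of the same and the sister pathway, with earlier results of these data known. The series holds 6 libraries in 3 groups of 2. The control is 1 ES cell clone titled F/F for the Hp1α and Hp1β genes, whose genotype is labelled WT, and the other groups are clone 1 and clone 2 of the double knockout (DKO) of Hp1α (Cbx5) and Hp1β (Cbx1). All cells were grown untreated with knockout serum replacement, LIF, the GSK3 inhibitor CHIR99021 at 3 µM and the MEK inhibitor PD184352 at 0.8 µM. With 1 control clone, an effect of the genotype and a difference between clones cannot be told apart, and nothing in the labels tells if a clone's libraries were grown apart, so p-values measure only the spread between these libraries, which may be technical.

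Phosphatidylethanolamine and phosphatidylcholine are the main phospholipids of cell membranes. In the Kennedy pathway ethanolamine or choline is phosphorylated by a kinase (Etnk1 for ethanolamine; Chka for choline and also ethanolamine), joined to CMP by a transferase that uses CTP (Pcyt2 for ethanolamine, Pcyt1a for choline) and transferred to diacylglycerol by a phosphotransferase of the endoplasmic reticulum and Golgi membranes (Selenoi for ethanolamine, Chpt1 for choline, Cept1 for either). Pisd works outside this pathway and makes phosphatidylethanolamine in mitochondria by decarboxylating phosphatidylserine. HP1 proteins bind histone H3 methylated on lysine 9 and are known for their place in heterochromatin.

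Selenoi (Entrez 28042) lies on the forward strand at chr5:30232581-30272430 of GRCm38, and its sequences are shown because it was the gene of the 8 with the large difference. SELENOI is a selenoprotein: a TGA codon inside its reading frame is read as selenocysteine instead of a stop. In the GENCODE M21 annotation this is codon 388 of 398, in the last exon (exon 10 of 10), at chr5:30266964-30266966. The coding bases around it, at chr5:30266934-30266996, are shown with that codon in capitals, and below them the 250 bases before the gene start (RefSeq, GRCm38.p6, chr5:30232331-30232580, forward strand), with each match to GGGCGG or its reverse complement CCGCCC in capitals.
Selenoi selenocysteine codon: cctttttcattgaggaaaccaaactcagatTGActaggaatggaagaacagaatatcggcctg
Selenoi upstream: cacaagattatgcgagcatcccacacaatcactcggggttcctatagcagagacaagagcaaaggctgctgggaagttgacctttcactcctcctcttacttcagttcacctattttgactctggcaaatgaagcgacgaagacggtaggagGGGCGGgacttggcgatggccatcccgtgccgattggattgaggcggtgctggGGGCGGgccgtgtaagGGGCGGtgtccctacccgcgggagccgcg
The upstream bases hold 3 such matches, and 32.7% of the 32851 upstream windows of this length in the RefSeq table hold at least 1. They also hold 1 match to CCAAT or its reverse complement ATTGG, present in 33.8% of all windows, and none to TATAAA or TTTATA, present in 12.4%. The window contains 17 CpG dinucleotides, against a median of 6 over all windows. The other members with a window in the table, 7 of the 8 with Selenoi and all but Pcyt2, each had at least 1 window with 20 or more CpG: 21 for Cept1, 26 for Pisd, 31 for Etnk1, 23 for Chpt1, 28 for Pcyt1a and 24 for Chka. Cept1 and Pisd also had a window with few, 0 and 3.

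The libraries held 24628872 to 34641560 counted reads. The targeted genes had less RNA in both clones: Cbx5 stood at 811 CPM (the usual scaling of counts by library size, with TMM factors) in the control and 198 CPM in the DKO libraries, and Cbx1 at 225 and 45.7 CPM. Remaining counts may come from exons outside the deleted part, which was not tested. All 10 ES cell markers examined, among them Pou5f1, Sox2, Nanog and Esrrb, were expressed, and their summed level was 4881 to 5098 CPM in the control and 4879 to 5188 CPM in the DKO libraries. Single markers moved within that sum in DKO against control: Nanog, on chromosome 6, rose from 498 to 626 CPM (adjusted p = 0.0281), Tdgf1 fell from 1247 to 1025 CPM (adjusted p = 0.0415), and the other 8 did not pass. Over all tested genes 5.06% passed as higher and 3.62% as lower in this comparison. The 10 fibroblast and feeder markers summed to 811 to 826 CPM in the control and 800 to 923 CPM in the DKO libraries, nearly all of it Fn1, while Col1a2, Col3a1, Postn, Lum and Dcn each stayed under 0.3 CPM in every library. Of that list 5 genes were tested and 1 of them fell in DKO against control: Acta2 went from 6.02 to 1.60 CPM (adjusted p = 0.0063). Tagln was at 19.4 and 22.8 CPM in the control and at 7.16 to 15.5 CPM in the DKO libraries, and it did not pass in that comparison. In each clone against control 2 of the 5 fell and none rose, where 6.47% of all genes fell in clone 1 and 7.08% in clone 2. The 7 primitive endoderm markers summed to 7.07 to 8.83 CPM and 4.99 to 6.54 CPM. The part of these other cell types in the results was not tested. Whole chromosomes were shifted against the control. Chromosome medians are given throughout less the median over all tested genes, which was -0.0055 in clone 1 and -0.00091 in clone 2. On this scale the median log2 change over the 709 tested genes of chromosome 6 was 0.44 in clone 1 and 0.51 in clone 2. Over the 701 genes of chromosome 3 it was 0.29 and 0.08. These shifts touch Etnk1 on chromosome 6 and Cept1 on chromosome 3. They also touch Nanog, whose log2 change in DKO against control, 0.33, was below the chromosome 6 median of 0.48 in that comparison.

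Selenoi was at 9.55 and 8.64 CPM in the 2 control libraries, at 48.1 and 48.3 CPM in clone 1, and at 39.0 and 38.2 CPM in clone 2. Every DKO library was above both control libraries, which was so for 16.9% of all tested genes (33.8% did not overlap in either direction). Within each group the libraries lay close together. The means were 9.10 ± 0.641 CPM (SD, n = 2) in the control, 48.2 ± 0.178 CPM (SD, n = 2) in clone 1 and 38.6 ± 0.575 CPM (SD, n = 2) in clone 2, so that clone 1 held 5.30 times and clone 2 held 4.24 times the control level. Behind these values stood 279 to 328 reads per control library and 971 to 1345 reads per DKO library. The chromosome of Selenoi did not move with it. Less the median of all tested genes, the median log2 change of the 914 tested genes of chromosome 5 was -0.01 in each clone. None of its 13268 distinct 50-base transcript words occurred in the transcripts of another GENCODE gene. The only annotated gene found to overlap it, the pseudogene Gm16288, is not a row of the count table. The gene was chosen for its rise in both clones, from the same libraries that the comparison of the clones uses. How far that choice bears on the comparison of the clones was not tested. Selenoi was lower in clone 2 than in clone 1, with a log2 change of -0.32 (SE 0.0882, adjusted p = 0.0477 in edgeR's quasi-likelihood test over all genes). Of the 14771 genes, 6.30% passed in that comparison, 2.53% as higher and 3.77% as lower, and the libraries of the clones did not overlap for 51.2%. The call was narrow: adjusted p was 0.0542 with library size alone as the scale, 0.0626 with a replicate block, 0.0563 with chromosomes centred, and 0.141 to 0.265 without any 1 of the 4 DKO libraries, while the log2 change stayed between -0.34 and -0.31.

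**Figure D1:**
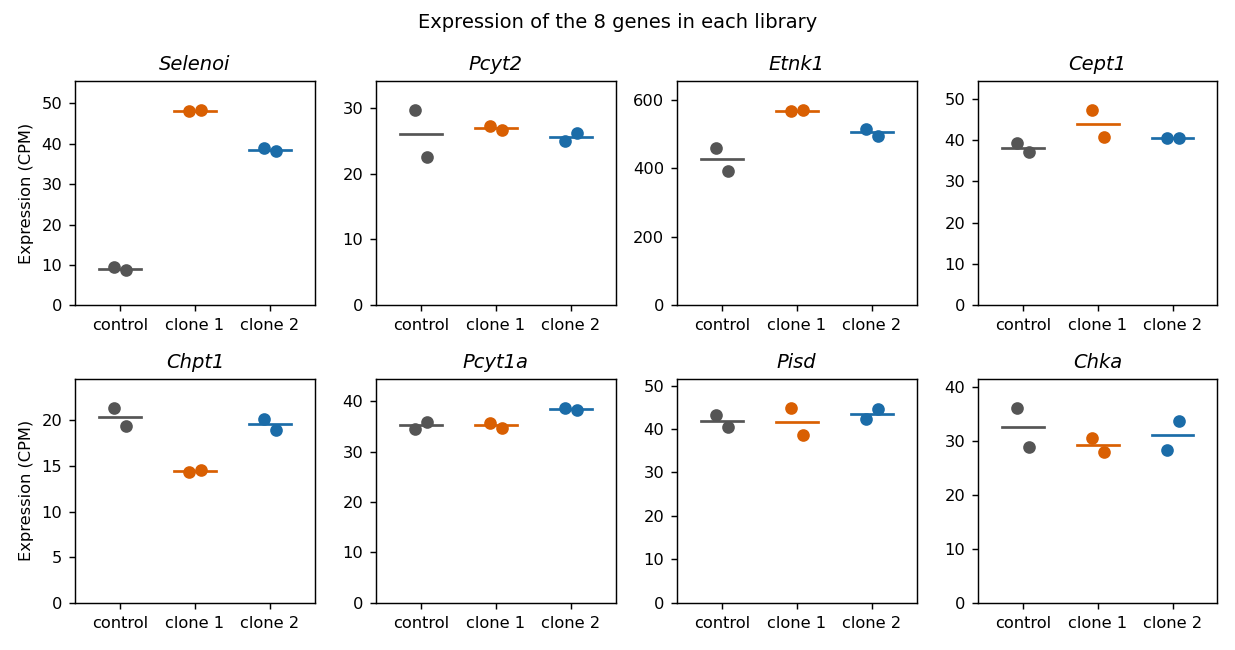
Expression of the 8 genes in CPM (vertical axes, each from 0) in the 2 libraries of the control, DKO clone 1 and DKO clone 2; points are libraries and lines are group means. Selenoi is at 8.64 to 9.55 CPM in the control and 38.2 to 48.3 CPM in the DKO libraries, and no other gene of the set shows such a gap.

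Counts per gene depend on gene length, so levels were compared between genes as CPM per kilobase of the deposited gene width (RPKM). On this scale Selenoi was the lowest of the 8 in the control, at 0.807 ± 0.0568 RPKM (SD, n = 2). It was the sixth of 8 in the DKO libraries, at 3.85 ± 0.493 RPKM (SD, n = 4), above Chpt1 and Chka. The highest was Etnk1, with 30.1 RPKM in the control and 37.9 RPKM in the DKO libraries, followed by Cept1 with 12.3 and 13.6 RPKM. Pisd (6.62 RPKM in the control) and Pcyt2 (6.01) overlapped, as did Chka (2.70) and Chpt1 (2.45), while Pcyt1a (4.75) lay below Pcyt2 in every control library. In the DKO libraries Pisd (6.73 RPKM) again overlapped Pcyt2 (6.06), and Chka (2.51) overlapped Chpt1 (2.04). Selenoi and Cept1 can both carry out the last step to phosphatidylethanolamine. Per length, Selenoi RNA was 6.73 and 6.42% of Cept1 RNA in the control libraries, 28.1 and 32.8% in clone 1 and 26.6 and 26% in clone 2. Cept1 therefore had the higher level per length in every library, with the limit that part of its sequence is shared with the overlapping gene Dennd2d. The deposited width of Selenoi is 11277 bases, and where the expressed transcripts are shorter than the width, the level per length is understated.

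**Figure D2:**
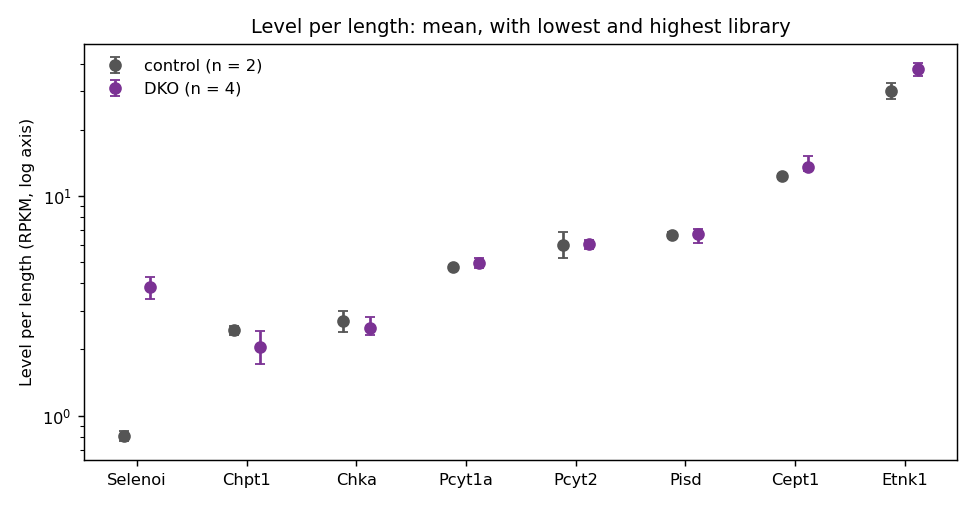
Level per length of the 8 genes (RPKM, log axis), as the mean with the lowest and highest library, in the control (n = 2) and DKO libraries (n = 4), in the order of the control level. Selenoi moves from the lowest of the 8 at 0.807 RPKM to 3.85 RPKM, above Chpt1 and Chka, while the order of the 5 highest genes is the same in both groups.

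The 7 other genes were tested as part of the whole table. In DKO against control 1 of the 7 passed as higher (Etnk1), none passed as lower and 6 did not pass in edgeR, and 1 of the 7 had an unadjusted p under 0.05. Over all 14771 genes 8.69% passed in this comparison, 5.06% as higher and 3.62% as lower. The share of all genes with an unadjusted p under 0.05 was not counted and cannot be below that 8.69%. The median log2 change of the 7 was 0.02, against 0.00038 for all tested genes. In DESeq2 and limma-voom the counts were also 1 higher and 0 lower. No general rise of the phosphatidylethanolamine and phosphatidylcholine genes beside that of Selenoi was detected.

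At the kinase step, Etnk1 (Entrez 75320, chr6:143166866-143208546) phosphorylates ethanolamine. It was at 460 and 392 CPM in the control, 568 and 570 CPM in clone 1, and 514 and 496 CPM in clone 2. All 4 DKO libraries were above both control libraries, which was so for 16.9% of all tested genes (33.8% did not overlap in either direction). The log2 change in DKO against control was 0.33 (SE 0.0867, adjusted p = 0.0393), and it was -0.14 (adjusted p = 0.434) when the median of each chromosome was set to that of all tested genes. Etnk1 thus rose less than the median gene of its chromosome: 29.3% of the tested genes of chromosome 6 had a lower change, and 49.1% of them passed as higher. In clone 1 the log2 change was 0.42 (adjusted p = 0.0029), or -0.03 after centring, and in clone 2 it was 0.25 (adjusted p = 0.0531), or -0.27 (adjusted p = 0.0439) after centring. The call in DKO against control ended without control replicate 1 (adjusted p = 0.0772), control replicate 2 (0.338), clone 1 replicate 1 (0.0623), clone 1 replicate 2 (0.0754) or clone 2 replicate 1 (0.0507), and with a replicate block it was 0.0569. The clone 2 value passed under 8 of the 14 alternatives without turning sign, among them DESeq2 (0.0283) and limma-voom (0.0401). The other kinase, Chka (Entrez 12660, chr19:3851585-3894369), acts on choline and ethanolamine. It was at 36.1 and 28.9 CPM in the control, 30.6 and 28 CPM in clone 1 and 28.3 and 33.7 CPM in clone 2. The groups overlapped, and the log2 change was -0.11 (SE 0.114, adjusted p = 0.627).

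The CTP step, which is known to control the flow through the Kennedy pathway, showed no passing difference. Pcyt2 (Entrez 68671, chr11:120610062-120617947) makes the CDP-ethanolamine that SELENOI uses. It was at 29.7 and 22.6 CPM in the control, 27.3 and 26.7 CPM in clone 1 and 25 and 26.2 CPM in clone 2. All DKO values lay between those of the 2 control libraries, with a log2 change of 0.01 (SE 0.114, adjusted p = 0.970). Its direction rested on the control library kept: with only control replicate 2 the log2 change was 0.23 and with only control replicate 1 it was -0.17, neither passing. Pcyt1a (Entrez 13026, chr16:32430921-32475065), which makes CDP-choline, was at 34.5 and 36.0 CPM in the control, 35.7 and 34.7 CPM in clone 1 and 38.7 and 38.4 CPM in clone 2. Clone 2 lay above the control and clone 1 did not, but neither clone's change passed: the log2 change was -0.0016 (adjusted p = 0.994) in clone 1 and 0.13 (adjusted p = 0.345) in clone 2.

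Cept1 and Chpt1 are the other phosphotransferases of the last step. Cept1 (Entrez 99712, chr3:106502260-106547802) was at 39.2 and 37.2 CPM in the control, 47.2 and 40.7 CPM in clone 1, and 40.5 and 40.6 CPM in clone 2. The DKO libraries lay above the control, as they did for 16.9% of all tested genes. The log2 change of 0.14 (SE 0.0921) had adjusted p = 0.387 and was -0.04 with chromosomes centred. In clone 1 the change was 0.20 where the median of chromosome 3, less that of all tested genes, was 0.29, and in clone 2 both were 0.08. Reads of Cept1 are uncertain in part, because 21.9% of its 50-base transcript words also occur in transcripts of Dennd2d, which it overlaps by 771 bases and which had 118 reads over all 6 libraries. Chpt1 (Entrez 212862, chr10:88469513-88503970), which makes phosphatidylcholine, was at 21.4 and 19.4 CPM in the control, 14.4 and 14.5 CPM in clone 1, and 20.2 and 19 CPM in clone 2. Clone 1 was below every other library, and clone 2 overlapped the control.

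Chpt1 fell in clone 1, with a log2 change of -0.50 (SE 0.108, adjusted p = 0.0071), and this was 1 of 2 members other than Selenoi that passed there, where 15.3% of all genes passed, 8.79% as higher and 6.47% as lower. In clone 2 its log2 change was -0.06 (SE 0.106, adjusted p = 0.767), and no member other than Selenoi passed there, where 15% of all genes passed, 7.89% as higher and 7.08% as lower. In clone 2, 1 of the 7 had an unadjusted p under 0.05, and DESeq2 and limma-voom each called 1, Etnk1. The share of all genes at that unadjusted level was not counted and cannot be below that 15%. The difference between the clones was itself tested, with a log2 change of 0.44 (SE 0.109, adjusted p = 0.0314) in clone 2 against clone 1. Without control replicate 1 the clone 1 call had adjusted p = 0.0717, and without any 1 of the 4 DKO libraries the test between the clones gave 0.0889 to 0.19, with log2 changes of 0.39 to 0.48. The end of Chpt1 overlaps the meiotic gene Sycp3 by 3724 bases, and 9.48% of its 50-base transcript words also occur in other genes. Sycp3 moved in the same way, at 10.3 and 9.23 CPM in the control, 7.07 and 5.57 CPM in clone 1 and 11 and 9.64 CPM in clone 2 (log2 change -0.63, adjusted p = 0.0160 in clone 1). The strand that was counted is not given in the sources used here, and the part of this overlap in the Chpt1 result was not tested.

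Pisd (Entrez 320951, chr5:32736301-32785642), the mitochondrial phosphatidylserine decarboxylase, was at 43.2 and 40.5 CPM in the control, 44.8 and 38.6 CPM in clone 1 and 42.3 and 44.6 CPM in clone 2. The groups overlapped, with a log2 change of 0.02 (SE 0.089, adjusted p = 0.906). It lies on the same chromosome as Selenoi. Reads of Pisd are uncertain, because 19.1% of its 50-base transcript words also occur in transcripts of other genes, and its pseudogene Pisd-ps3 had as many reads as the gene, with 51.0 ± 5.64 CPM (SD, n = 2) in the control and 47.4 ± 2.07 CPM (SD, n = 4) in the DKO libraries. None of the 3 Pisd pseudogenes passed in any of the 4 comparisons, nor at unadjusted p under 0.05 in edgeR.

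**Figure D3:**
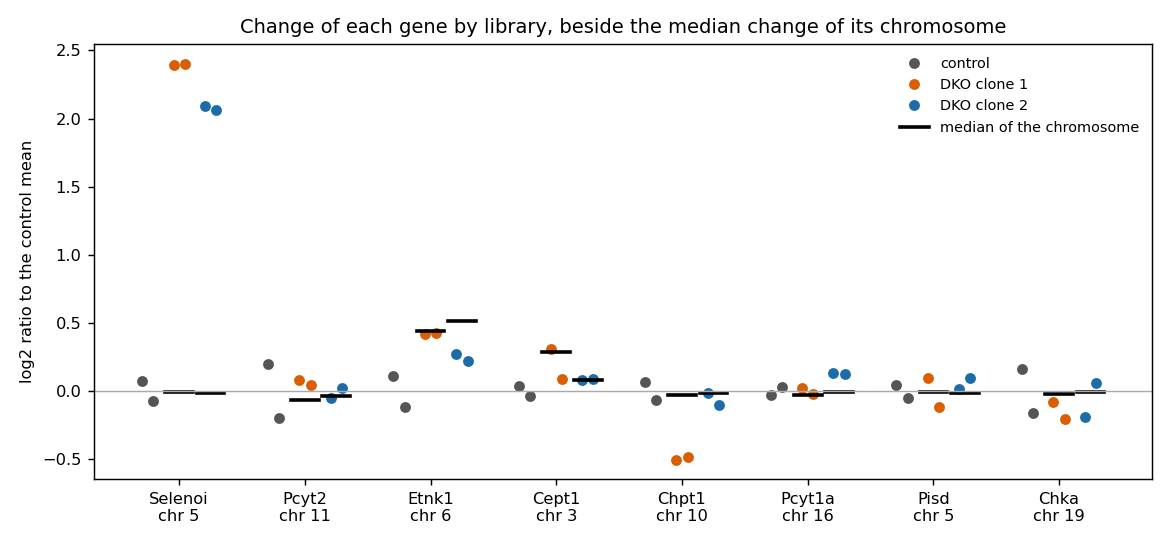
Log2 ratio of each library to the control mean for the 8 genes (points: control, DKO clone 1, DKO clone 2). Black lines are the median log2 change of the gene's chromosome in each clone, less the median of all tested genes. Selenoi stands above 2 in all 4 DKO libraries with its chromosome at -0.01, Etnk1 lies at or below the lines of chromosome 6 (its change of 0.33 turns to -0.14 with chromosomes centred), Cept1 lies near or below those of chromosome 3, and Chpt1 is lower in clone 1.

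No tested neighbour of Selenoi on chromosome 5 changed by as much as Selenoi in either clone. Selenoi was chosen for its rise, and its change lay above that of 99.9% of all tested genes in clone 1 and 99.8% in clone 2. Few genes anywhere reach such a change, so its absence among 20 neighbours says little. Among the 10 nearest tested genes on each side, spanning chr5:29434659-30931248, log2 changes in DKO against control ran from -0.43 to 0.46 with a median of -0.02. Of these 20 genes 2 passed as higher and none as lower, or 10% against the 8.69% of all genes. In clone 1 the counts were 3 higher and 1 lower, where 15.3% of all genes passed, and in clone 2 they were 4 higher and 1 lower, where 15% passed. Those higher in DKO against control were Cenpa, the centromeric histone H3 variant, which rose from 52.8 to 69.6 CPM (log2 change 0.40, adjusted p = 0.0115), and Ost4, a subunit of the oligosaccharyltransferase, which rose from 35.9 to 49.2 CPM (log2 change 0.46, adjusted p = 0.0276). Neither call held without control replicate 1 (adjusted p = 0.0722 and 0.27) or control replicate 2 (0.143 and 0.078). Ost4 was also at 0.0503 when clone 1 replicate 1 was left out, at 0.0574 when clone 2 replicate 1 was, and at 0.0571 with a replicate block. Hadhb, a subunit of the mitochondrial enzyme of fatty acid oxidation and the nearest tested gene before Selenoi, was at 20.3 CPM in the control and 25.6 CPM in the DKO libraries (adjusted p = 0.202), and it rose in clone 2, to 28.8 CPM (log2 change 0.51, adjusted p = 0.0079). On the other side the nearest tested genes, Mir5625 and Slc35f6, started 415.4 kb away, and Slc35f6 rose in clone 2, from 8.32 to 11.5 CPM (log2 change 0.46, adjusted p = 0.0461). Tmem214 rose in clone 1, from 38.8 to 49.0 CPM (log2 change 0.34, adjusted p = 0.0343). Other neighbours fell: Dnajb6 in clone 1, from 231 to 188 CPM (log2 change -0.30, adjusted p = 0.0169), and Ube3c in clone 2, from 164 to 136 CPM (log2 change -0.26, adjusted p = 0.0216).

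**Figure D4:**
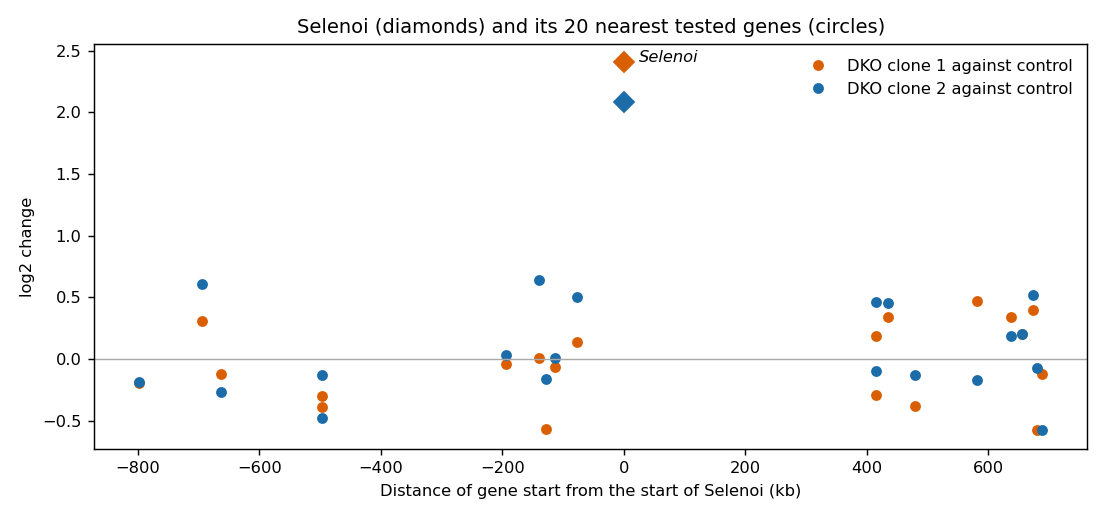
Log2 change against control (vertical axis) of Selenoi (diamonds) and its 20 nearest tested genes (circles) in each DKO clone, by distance of the gene start from that of Selenoi in kb. The neighbours lie between -0.58 and 0.64, and Selenoi lies at 2.40 in clone 1 and 2.08 in clone 2.

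The genes whose profile over the 6 libraries was most like that of Selenoi were ranked by the root mean square difference of log2 CPM, each gene centred on its own mean, among 11577 tested genes with a mean of 2 CPM or more. The first 5 were Col6a3, a collagen VI chain (difference 0.118), Dcdc2a, a doublecortin domain gene (0.221), Arntl2, a circadian transcription factor (0.246), Nrp2, a semaphorin and VEGF receptor (0.257), and BC064078 (0.26). They were picked for this likeness and are described without a test. Col6a3 had 1.67 CPM in the control, 9.48 CPM in clone 1 and 6.52 CPM in clone 2, and Nrp2 had 17.6, 68.7 and 50.3 CPM, so both were, as Selenoi was, higher in clone 1 than in clone 2. Arntl2 and BC064078 lie on chromosome 6, and their log2 changes in DKO against control, 2.10 and 2.04, were 1.63 and 1.57 with chromosomes centred. None of the 5 is a member of the lists of lipid or selenoprotein genes used here. The other members stood far down this ranking, from place 973 for Etnk1 to place 10504 for Chpt1.

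The wider metabolism around Selenoi was described by 9 lists of phospholipid and selenoprotein genes with 99 tested genes. In DKO against control 8 of the 99 rose (8.08%, against 5.06% of all genes) and 2 fell (2.02%, against 3.62%), with a median log2 change of 0.04. In clone 1 against control 11 rose (11.1%, against 8.79% of all genes) and 7 fell (7.07%, against 6.47%), and in clone 2 against control 16 rose (16.2%, against 7.89%) and 3 fell (3.03%, against 7.08%). Of the 16, 6 lie on chromosome 6 and 1 on chromosome 3. The counts and values of the single lists are for DKO against control unless a clone is named, to be read against the 5.06% of all genes that rose and the 3.62% that fell. Counts for a clone are to be read against the 8.79% that rose and 6.47% that fell in clone 1, and the 7.89% and 7.08% in clone 2. Of the 8 that rose, 4 lie on chromosome 6 and 1 on chromosome 3. With chromosomes centred 3 rose and 2 fell. Leaving out either control library left 2 that rose and 0 that fell.

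Among 8 other genes of phosphatidylethanolamine and phosphatidylcholine synthesis 1 fell, none rose and 7 did not pass. In clone 1 against control 1 fell and none rose, and in clone 2 against control 1 rose and 1 fell. Phospho1, a phosphatase of phosphoethanolamine and phosphocholine, fell from 32.9 ± 0.634 CPM (SD, n = 2) to 24.0 ± 2.28 CPM (SD, n = 4), with a log2 change of -0.46 (adjusted p = 0.0197). Leaving out control replicate 1 or 2 gave 0.177 or 0.129. The phosphatidylserine synthases Ptdss1 (53.8 and 58.9 CPM in control and DKO) and Ptdss2 (22.3 and 25.1 CPM), which supply the substrate of Pisd, did not pass. Of 7 genes for transport of choline and ethanolamine 1 rose and 6 did not pass. Against control 1 rose in clone 1 and 2 rose in clone 2, and none fell in either. Flvcr2, a choline transporter, rose from 16.7 ± 1.35 to 26 ± 4.62 CPM (SD, n = 2 and 4), with a log2 change of 0.64 (adjusted p = 0.0276). Leaving out control replicate 1 or 2 gave 0.254 or 0.14, leaving out clone 1 replicate 2 gave 0.0527, and a replicate block gave 0.055. Flvcr1, a transporter of choline and ethanolamine, was at 11.6 CPM in the control and 11.7 CPM in the DKO libraries.

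Plasmalogens are ether lipids whose ethanolamine form is a main product of SELENOI. Of 10 genes of ether lipid synthesis and its peroxisomal import 2 rose, both on chromosome 6, and 8 did not pass. Against control 3 rose in clone 1 and 2 rose in clone 2, and none fell in either. Pex5, the import receptor for peroxisomal enzymes, rose from 25.8 to 39.3 CPM. Its log2 change of 0.61 (adjusted p = 0.0020) was 0.13 (adjusted p = 0.403) after centring. Far2, a fatty acyl-CoA reductase, rose from 40.0 to 52.5 CPM. Its log2 change of 0.39 (adjusted p = 0.0307) was -0.09 (adjusted p = 0.612) after centring. The call of Far2 also ended without control replicate 1 (0.165), control replicate 2 (0.224) or clone 2 replicate 1 (0.0636), and with a replicate block (0.0606). Gnpat and Agps, which make the first ether lipids, were at 79.3 and 150 CPM in the control and 84.7 and 149 CPM in the DKO libraries. In DKO against control no gene passed among 17 for the supply of phosphatidic acid and diacylglycerol, 8 for phosphatidylinositol, phosphatidylglycerol and cardiolipin, 14 for phospholipid remodelling and 8 for the GPI anchor, which takes its ethanolamine phosphate from phosphatidylethanolamine. In these 4 lists, in the same order, 4, 2, 2 and 0 genes had an unadjusted p under 0.05, and their medians lay between -0.08 and 0.03. The share of all tested genes at that unadjusted level was not counted. It cannot be below the 8.69% that passed after adjustment. Some genes of these lists passed in a clone. Of all tested genes 8.79% rose and 6.47% fell in clone 1, and 7.89% rose and 7.08% fell in clone 2. In clone 1 the supply list had 1 higher and 1 lower, the phosphatidylinositol list 1 lower and the remodelling list 1 lower. In clone 2 the supply list had 2 higher, the phosphatidylinositol list 1 higher and 1 lower and the remodelling list 2 higher. No gene of the GPI list passed in either clone.

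Of 20 other selenoprotein genes 4 rose, 1 fell (5.06% and 3.62% of all genes did) and 15 stayed short of the threshold. The median change was 0.10 on the log2 scale. In clone 1 against control 5 rose and 3 fell, where 8.79% and 6.47% of all genes did. In clone 2 against control 5 rose and 1 fell, where 7.89% and 7.08% of all genes did. Selenow, a small thiol protein, rose from 21.8 to 32.1 CPM (log2 change 0.55, adjusted p = 0.0065, and 0.109 when control replicate 1 was left out). Selenoh, a nucleolar protein, rose from 105 to 128 CPM (log2 change 0.29, adjusted p = 0.0327). Selenot, a protein of the endoplasmic reticulum encoded on chromosome 3, rose from 321 to 442 CPM (log2 change 0.46, adjusted p = 0.0316, and 0.27 with adjusted p = 0.0559 after centring). Txnrd3, a thioredoxin reductase encoded on chromosome 6, rose from 13.3 to 22.6 CPM (log2 change 0.76, adjusted p = 0.0028, and 0.28 with adjusted p = 0.173 after centring). Dio3, the deiodinase that inactivates thyroid hormone, fell from 5.41 to 2.51 CPM (log2 change -1.11, adjusted p = 0.0324). Selenoh, Selenot and Dio3 did not pass without control replicate 1 (adjusted p = 0.153, 0.186 and 0.181) or control replicate 2 (0.243, 0.245 and 0.229), and Txnrd3 did not without control replicate 2 (0.0535). Leaving out 1 DKO library also ended the calls of Selenoh (0.0699 without clone 1 replicate 2, 0.0761 without clone 2 replicate 1, 0.0606 without clone 2 replicate 2), Selenot (0.057 without clone 1 replicate 2) and Dio3 (0.0584 without clone 1 replicate 1). With a replicate block these 3 were at 0.0645, 0.0606 and 0.0651. Of 7 genes of the machinery that inserts selenocysteine 1 rose and 6 did not pass. Against control 1 rose in each clone and none fell. Eefsec, the elongation factor for selenocysteine, is a chromosome 6 gene whose level rose from 17.1 to 26.7 CPM (log2 change 0.64, adjusted p = 0.0080, and 0.16 with adjusted p = 0.432 after centring; 0.12 and 0.0759 without control replicate 1 and 2). No change of the size seen for Selenoi passed in any of these lists. Selenoi was chosen for its rise, and its change in DKO against control lay above that of 99.9% of all tested genes. Few genes of any list would reach this size.

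**Figure D5:**
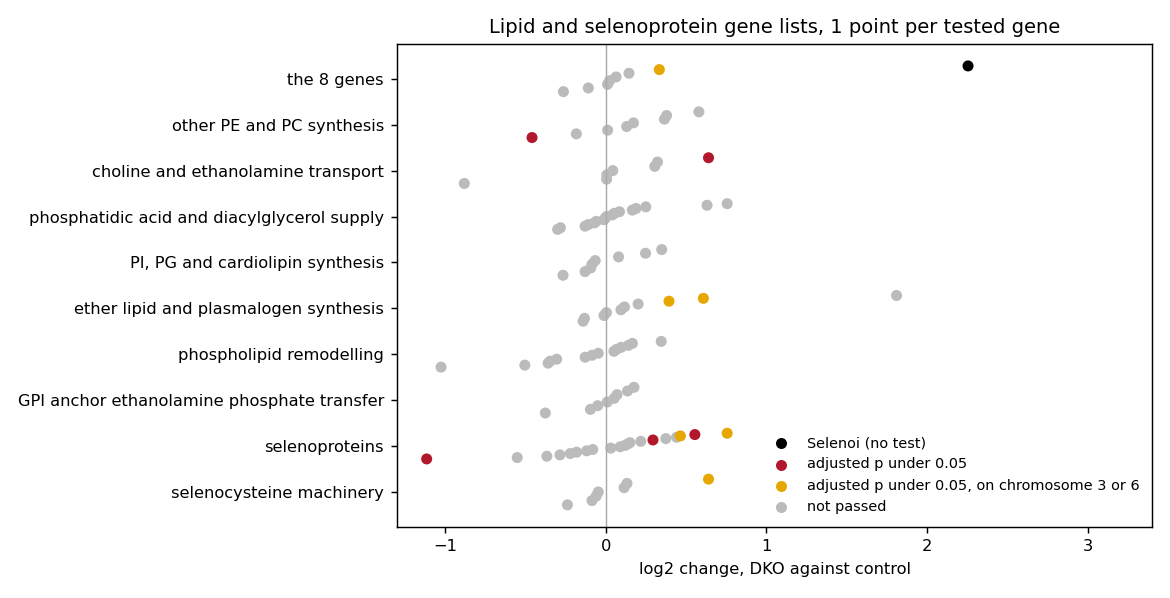
Log2 change in DKO against control (horizontal axis) of each tested gene in 10 lists (rows), grey where the adjusted p was 0.05 or more, red or, on chromosomes 3 and 6, yellow where it was lower, and black for Selenoi, which has no test here. Selenoi at 2.25 is to the right of all other points, of which the farthest right, at 1.81, is the barely expressed Tmem86a (0.135 and 0.483 CPM) that did not pass, and 5 of the 8 raised list genes are yellow, as is Etnk1; Far2 and Etnk1 turn below 0 after centring.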

How the data were processed

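RNA from 6 libraries (RNeasy columns, Turbo DNase, ScriptSeq v2 kit, per the labels' protocols) was aligned by the authors with STAR 2.5.0a to mm10 (GRCm38), per the submitters' processing notes. The authors deposited 1 table of raw counts for Entrez IDs, beside each gene's width, per the file headers. The counting tool, strand setting and annotation are not named in the labels or headers. Of 24467 IDs, 24437 matched the RefSeq table of GRCm38.p6, and the 30 others took 0.389 to 1.62% of the reads.

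Testing was done in edgeR 4.0.16 under R 4.3.3: filterByExpr over 3 groups (14771 genes), TMM scaling (factors 0.992 to 1.012), quasi-likelihood F tests (two-sided) and Benjamini-Hochberg adjustment over all tested genes, threshold 0.05. DKO against control used genotype alone (4 against 2 libraries, 4 residual degrees of freedom). Clone comparisons used a fit with 3 groups (3 residual degrees of freedom). SE were taken from the F statistic. RPKM used the deposited width, and profiles used log2 CPM with a prior count of 2. The fits were tested on simulated data. Members and lists were chosen with earlier results of these data known. The rule names the 8 members, Cbx5 and Cbx1, and up to 6 genes per list that passed in DKO against control. It also names the neighbours of Selenoi called in DKO against control and the 5 genes with the most similar profile. Hadhb, Slc35f6, Tmem214, Dnajb6, Ube3c, the marker genes and the other list genes given with values were added after their values were seen. Alternatives were RLE and library-size scaling, other filters, DESeq2 1.42.0, limma-voom (limma 3.58.1), a replicate block, the mean of both clones, counts summed per clone, leaving out each library, and centring each chromosome on its median in each clone.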

Additional observations from a re-analysis of the deposited data

Results flagged for a closer look

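The test of clone 2 against clone 1 was passed by 6.30% of all tested genes. In it the effects of the clones against their shared control differed for 1 of the 7 members other than Selenoi. This was Chpt1 (14.5 and 19.6 CPM in clones 1 and 2, adjusted p = 0.0314), and 4 of 14 alternatives ended its call. Selenoi is left out of this count because it was chosen from these same libraries. It was at 48.2 and 38.6 CPM (adjusted p = 0.0477), and 7 of 14 alternatives ended that call. The 10 list genes named above were picked because they passed in DKO against control. Among them the effects of the clones differed for Flvcr2 (29.7 and 22.4 CPM, adjusted p = 0.0459), Dio3 (1.76 and 3.26 CPM, adjusted p = 0.0334) and Selenot (497 and 388 CPM, adjusted p = 0.00617). Selenot lies on chromosome 3, whose median was 0.18 log2 units lower in clone 2 than in clone 1; the part of this shift in the Selenot difference was not tested.

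Single libraries stood apart from the other 3 DKO libraries for Cept1, where clone 1 replicate 1 held 47.2 CPM and the others 40.5 to 40.7 CPM (gap over range 0.966), and for Selenoh, where clone 1 replicate 1 was the lowest (gap over range 0.867). The DKO libraries of 20 genes were examined in this way, and chance gives such a gap in about 1 of 20 groups of 4.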

How the results depend on the processing

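In DKO against control, the number of members other than Selenoi that passed as higher, 1, became 0 with a replicate block, with counts summed per clone and with chromosomes centred, and was 0 to 1 over the fits that left out 1 library; none passed as lower under any of the 16 alternatives. The 1283 genes called in all became 2628 with the mean of both clones in the 3-group fit, 2 with counts summed per clone and 790 with chromosomes centred, and 246 to 1186 over the fits without 1 library, the lowest without control replicate 1 and 313 without control replicate 2. The 8 list genes that rose became 15 with the 3-group fit, 4 with a replicate block, 0 with counts summed per clone and 3 with chromosomes centred, and 2 to 9 without 1 library. The 2 that fell became 1 with a replicate block and 0 with counts summed per clone, and 0 to 2 without 1 library. Members other than Selenoi called in clone 1 against control, 2, became 1 with chromosomes centred and 1 to 2 without 1 library. Those in clone 2, 0, became 1 with library size only, no filter, a replicate block, chromosomes centred, DESeq2 or limma-voom, and 0 to 1 without 1 library. Those in clone 2 against clone 1, here with Selenoi, 2, became 1 with library size only, a replicate block or chromosomes centred, and 0 to 2 without 1 library. With chromosomes centred these log2 changes turned sign: Etnk1 to -0.14 in DKO, -0.027 in clone 1 and -0.27 in clone 2, Far2 to -0.087 in DKO, and, passing neither before nor after, Cept1 to -0.04 in DKO, -0.083 in clone 1 and 0.085 in clone 2 against clone 1, as well as the changes near 0 of Pcyt1a and Pisd in clone 1 and Pcyt2 in clone 2. The Selenoi log2 change in DKO against control stayed between 2.19 and 2.33 over the 16 alternatives. Same-numbered libraries did not deviate together (correlations 0.028, -0.0834 and 0.026), so the numbers were not taken as pairs. Where a fit left a clone or the control with 1 library, that library was assumed to vary like the other groups. The cause of these changes was not tested.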
